A study of Mus musculus with 8 samples.

Results

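The genes described are 36 members of the pathway that turns glucose into pyruvate and lactate, chosen by name from the 45232 rows of the deposited expression table. They comprise the glucose transporters, the enzymes of glycolysis, lactate dehydrogenase and the lactate carriers, the pyruvate dehydrogenase complex with the kinases and phosphatase that switch it, the regulators of phosphofructokinase, and the transcription factor gene Hif1a. Of these members, 35 reached 1 TPM in at least 2 libraries and were tested among 13376 genes. The member left out was Pdk4, a kinase that inactivates pyruvate dehydrogenase, which was listed at 0 in 6 of the 8 libraries and reached 1.89 TPM in its highest.

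RNA was sequenced from sorted CD4+ CD25+ T cells, the surface phenotype of regulatory T cells (Tregs), of C57BL/6 mice. The 4 groups were wild-type (WT) cells from visceral adipose tissue, cells labelled Id2 CKO (called KO here) from visceral adipose tissue, WT cells from spleen and KO cells from spleen, with 2 libraries a group, numbered 2 and 3. At least 500 cells were sorted for a library. The sources used here name neither the Cre driver, nor the removed part of Id2, nor the age of the mice. No label ties a library to its own mouse, so the spread behind each p-value is that between libraries and may be technical. Values are in TPM (transcripts scaled for their length and for the total of the library), and each series of 8 values below runs WT adipose 2 and 3, KO adipose 2 and 3, WT spleen 2 and 3, KO spleen 2 and 3.

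Glycolysis splits glucose into pyruvate in the cytosol and yields ATP without oxygen. Lactate dehydrogenase converts pyruvate to lactate, whereas the pyruvate dehydrogenase complex feeds it to the mitochondria as acetyl-CoA. Activated conventional T cells raise glycolysis strongly through Myc, mTOR and HIF-1, while Tregs rely to a larger degree on mitochondrial oxidation of fuels. Id2 encodes a protein that binds E proteins, transcription factors that recognise E-box sequences, and keeps them off DNA. Visceral adipose tissue of lean mice holds a distinct Treg population.

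One form of the core that HIF-1 binds is ACGTG, and other forms were not searched. Myc binds the E-box CACGTG, which itself contains ACGTG on both strands. RefSeq promoter entries on GRCm38.p6 matched 34 of the 36 members (Slc2a3 and Pdp1 had no entry), and the 250 bases upstream of the start were searched on both strands. ACGTG was present for 17 of the 34 matched members (50%), against 2351 of 9413 genes that passed the expression filter and had an entry (25%). CACGTG was present for 6 members (17.6%) against 9.79% of the genes that passed. CAGGTG, an E-box that E proteins bind, was present for 2 members (5.88%) against 18.2%. The windows of 3 members on which the results below turn are shown for their differing ACGTG content: the lactate-producing Ldha, its counterpart Ldhb, and Hif1a. Capitals mark ACGTG on either strand, with overlapping matches merged, and CACGTG where it holds them.
Ldha: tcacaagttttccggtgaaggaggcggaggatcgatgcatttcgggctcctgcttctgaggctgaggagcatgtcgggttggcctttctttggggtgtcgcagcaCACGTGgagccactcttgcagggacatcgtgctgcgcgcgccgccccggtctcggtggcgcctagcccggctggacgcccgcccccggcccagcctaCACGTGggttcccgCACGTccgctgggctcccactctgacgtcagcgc
Ldhb: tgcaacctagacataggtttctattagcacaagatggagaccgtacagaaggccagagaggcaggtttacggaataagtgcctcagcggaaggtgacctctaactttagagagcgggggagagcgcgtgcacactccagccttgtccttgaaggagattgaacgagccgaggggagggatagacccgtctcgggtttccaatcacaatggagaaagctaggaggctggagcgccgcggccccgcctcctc
Hif1a: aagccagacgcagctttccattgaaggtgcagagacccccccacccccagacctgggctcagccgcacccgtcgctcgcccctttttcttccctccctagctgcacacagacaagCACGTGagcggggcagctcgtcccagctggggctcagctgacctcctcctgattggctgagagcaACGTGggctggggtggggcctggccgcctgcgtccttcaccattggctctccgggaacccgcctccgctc
The Ldha window lies at chr7:46845554-46845803 on the plus strand, is the first of 2 entries for that gene, and holds 3 separate runs. The Ldhb window, at chr6:142507958-142508207 on the minus strand, holds no ACGTG. The Hif1a window, at chr12:73907617-73907866 on the plus strand, holds 2 separate runs. Median GC content was 61.0% over the 48 windows of the members and 59.6% over the 11934 windows of genes that passed the filter. The median adipose minus spleen difference in log2(TPM + 1), averaged over genotypes, was 0.55 for the 17 members with ACGTG and 0.75 for the 16 tested members without it. The order differed between contrasts: the medians were 0.96 and 0.85 for the tissue difference in WT cells, 0.35 and 0.72 for that in KO cells, -0.57 and -0.44 for KO minus WT in adipose tissue and 0.25 and 0.016 in spleen, and -0.86 and -0.45 for the interaction of genotype and tissue.

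Id2 itself, the targeted gene, was measured at 2249, 3679, 1499, 1298, 274, 346, 72.1 and 265 TPM. It was lower in both KO adipose libraries than in both WT ones, with transcripts still present, and KO spleen 3 lay close to WT spleen 2. The KO minus WT difference did not pass the limma test in adipose tissue (log2 difference -1.04, adjusted p = 0.751) or in spleen (-1.15, adjusted p = 1). T cell genes were present in every library, with the summed TPM of 13 core genes at 3735 in KO adipose 3 and between 7326 and 9901 in the others. Foxp3, which defines Tregs, was at 7.40 and 8.27 TPM in KO adipose 2 and KO spleen 2 and between 93.5 and 266 TPM in the other 6 libraries. Genes above 0 numbered 13184 to 20684 a library, with KO adipose 2 the lowest and KO adipose 3 the highest. KO adipose 3 had the highest macrophage and monocyte sum (11200 TPM over 11 genes, against 9.41 to 615 elsewhere), adipocyte sum (14312 TPM over 7 genes, against 1.03 to 2105) and fibroblast and mesothelium sum (3591 TPM over 9 genes, against 729.7 in KO adipose 2 and at most 4.80 in the others). The macrophage markers Adgre1, Mrc1, C1qc and Fcgr1 were at 0 in KO adipose 2. Erythroid genes summed to 43.1 to 63676 TPM. Counts behind the TPM values were not used here, so the depth is unknown. In these bulk libraries, fewer cells of a type and less RNA per cell cannot be told apart.

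The pathway was strongly expressed in all 8 libraries. The summed TPM of the 36 members was 6515, 5733, 5621, 3921, 3185, 3182, 3297 and 3858, so that all 4 adipose libraries lay above all 4 spleen libraries, KO adipose 3 and KO spleen 3 by a narrow margin. By mean TPM over the 8 libraries the members ran from Ldha, the muscle-type lactate dehydrogenase subunit, at 1048 TPM through Pkm (504), Aldoa (493) and Eno1 (486) to Slc16a3 (1.41), Eno2 (1.02) and Pdk4 (0.241). Aldoa carried most of the aldolase transcripts and Eno1 most of the enolase transcripts in every library. Gapdh, Pgk1, Ldha, Pgam1, Tpi1, Aldoa, Eno1 and Pkm have processed pseudogene copies in the mouse genome, and the sources used here do not say how reads were divided among copies, so their absolute levels are uncertain.

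**Figure D1:**
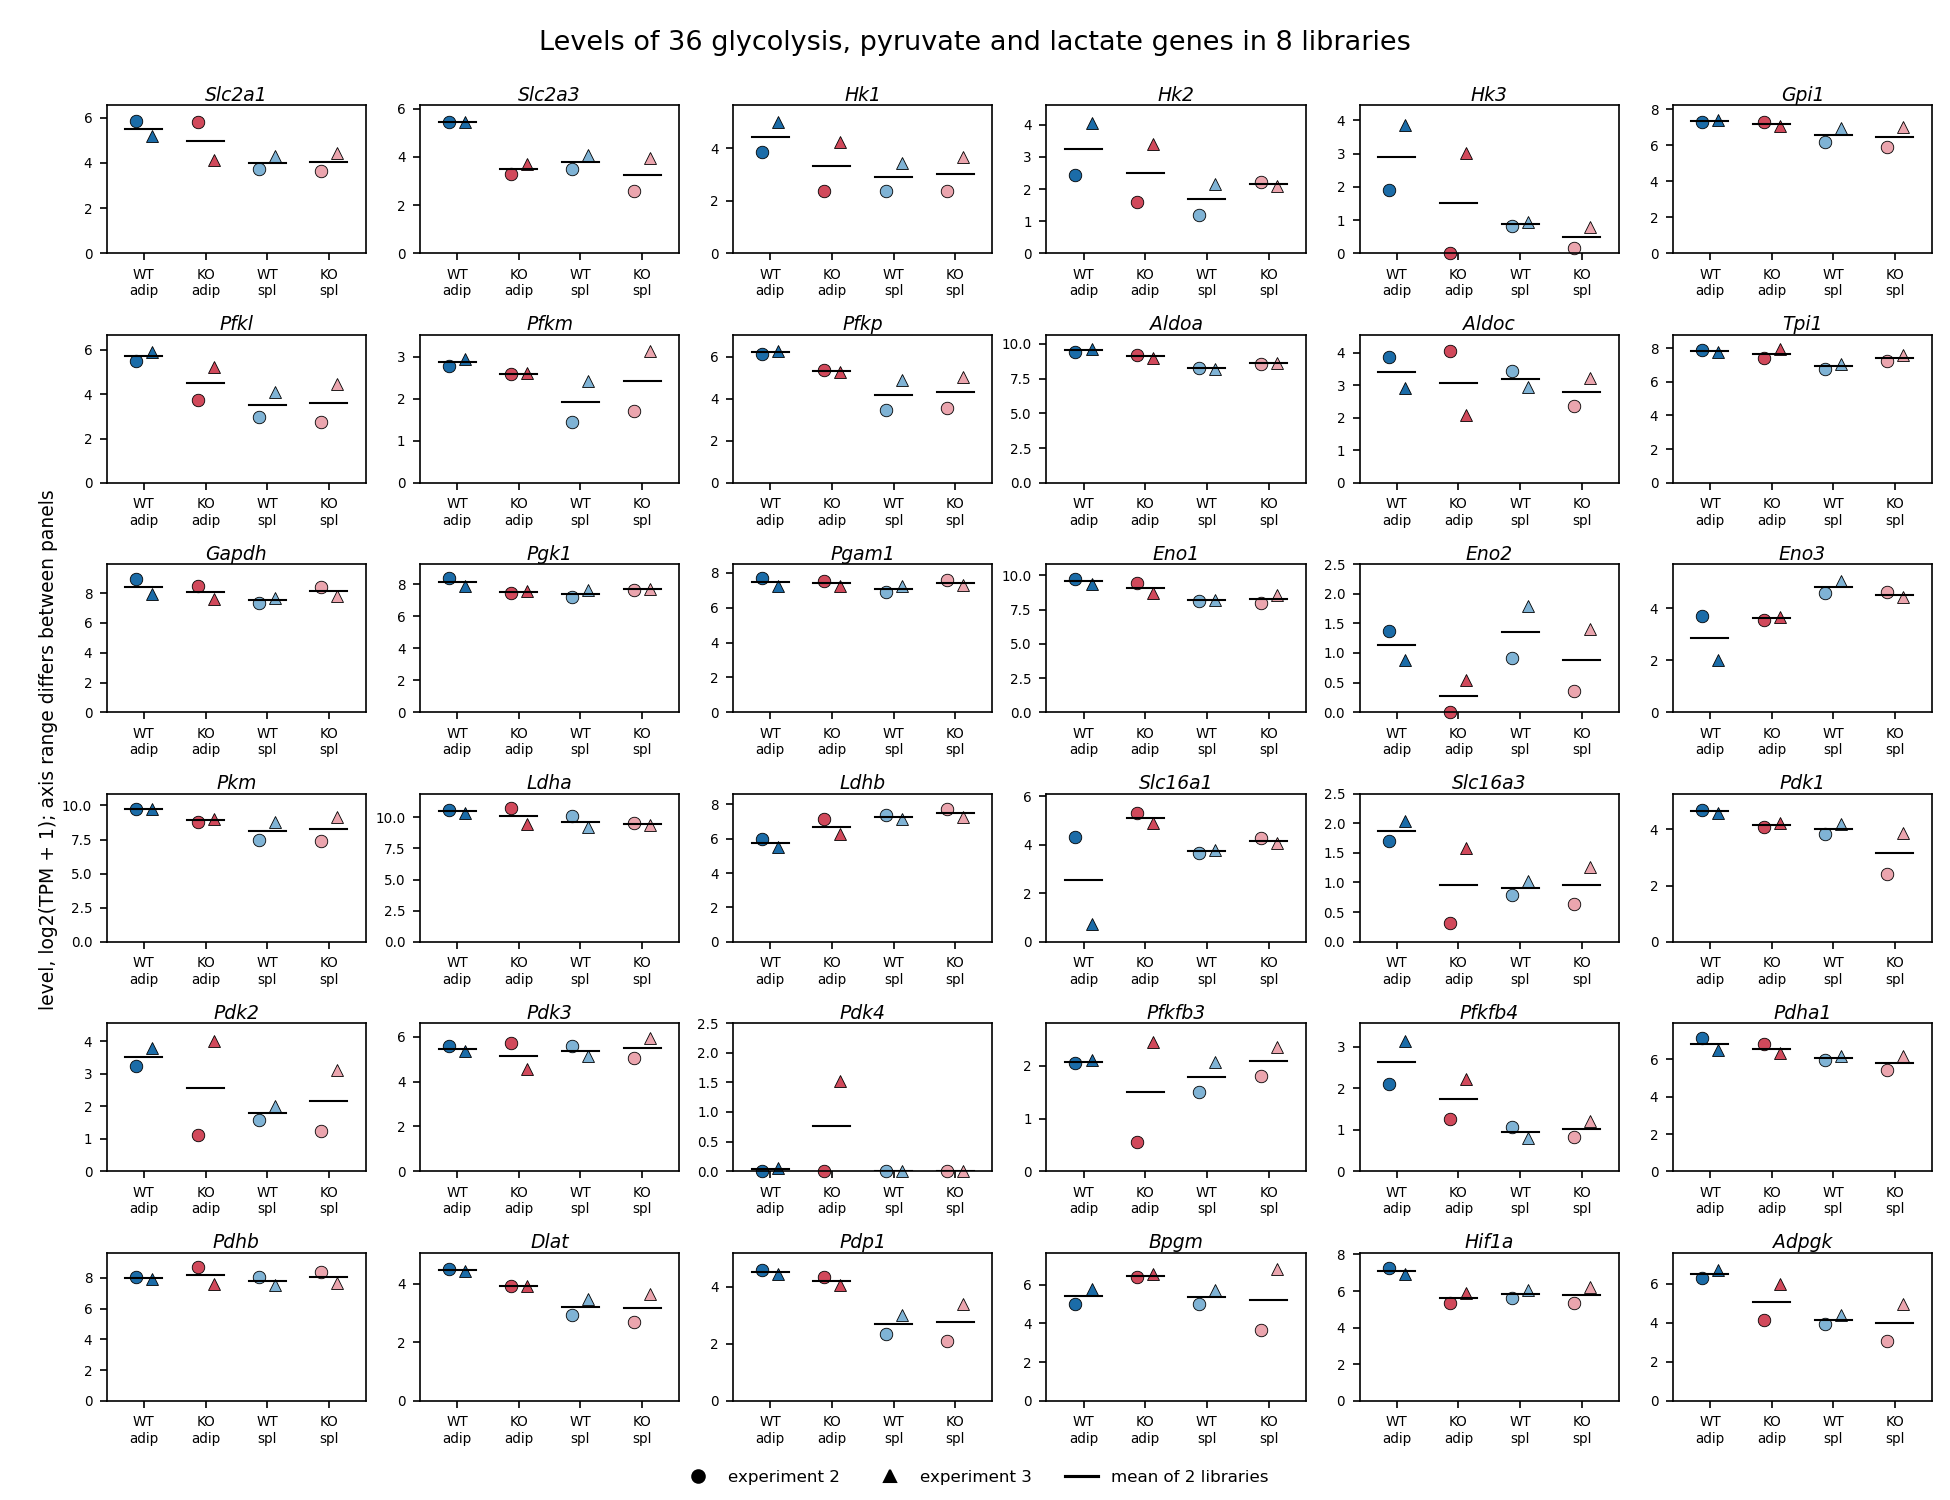
Expression of the 36 members in each of the 8 libraries, in pathway order, on axes of log2(TPM + 1) whose range differs between panels. Circles are libraries numbered 2, triangles those numbered 3, and lines the mean of the 2, and the levels run from Ldha, at 586 TPM or more in every library, to Pdk4, at 1.89 TPM or less.

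**Figure D2:**
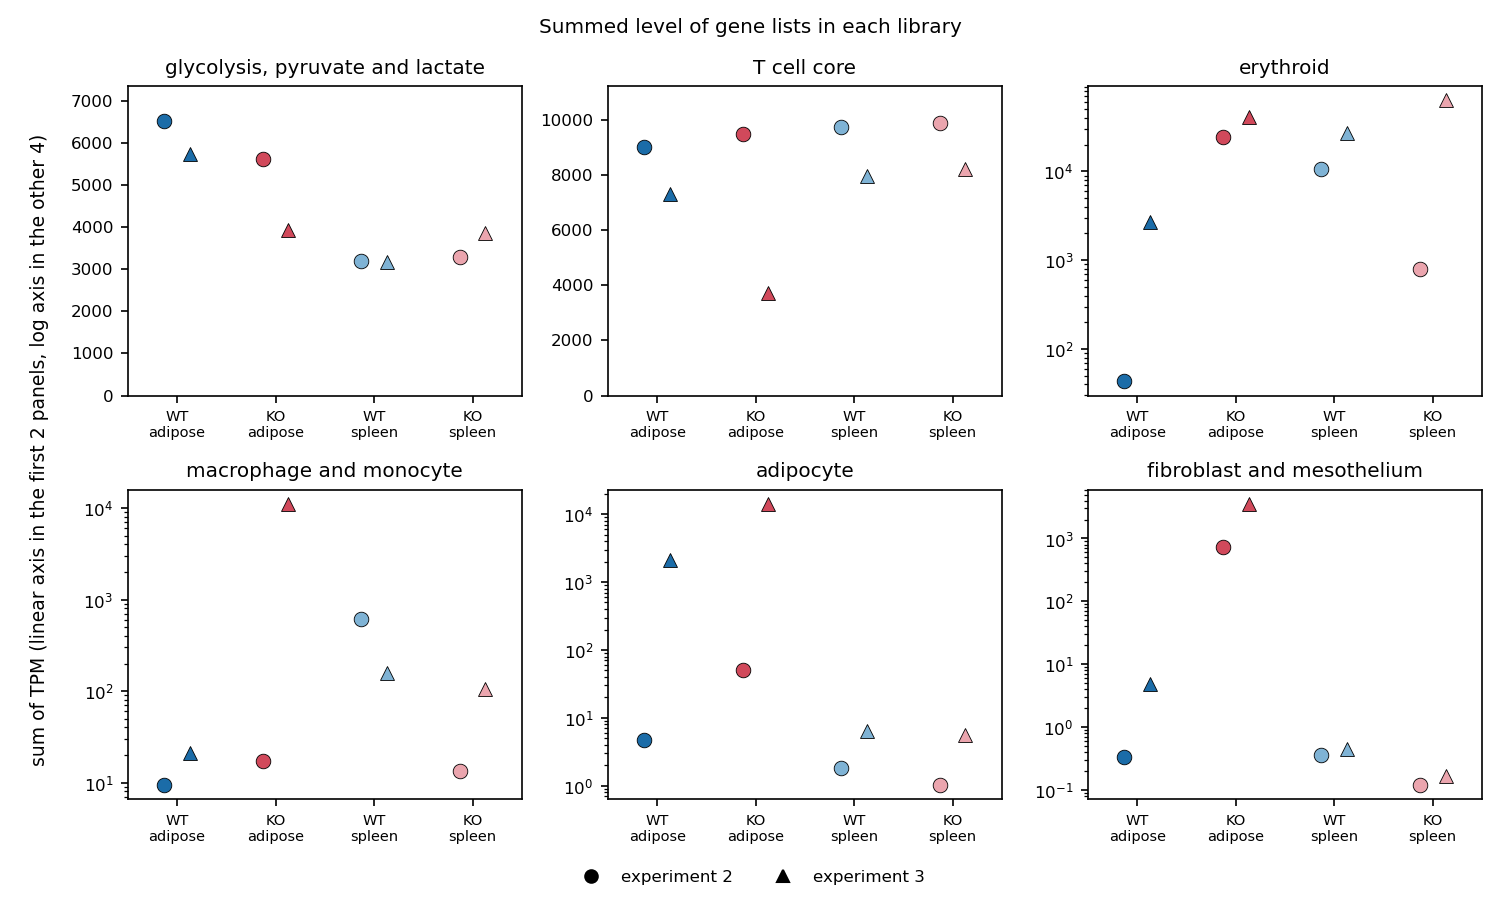
Summed TPM of the 36 members and of the marker lists for T cells and for other cell types in each library, on a linear axis in the first 2 panels and a log axis in the other 4 (circles, libraries numbered 2; triangles, 3). The members' sums are 3921 to 6515 TPM in the adipose libraries and 3182 to 3858 TPM in the spleen libraries, and KO adipose 3 has the highest macrophage, adipocyte and fibroblast sums.

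Most members were higher in adipose than in spleen cells, and in WT cells the libraries of the 2 tissues did not overlap for 28 of the 35 members tested. Of these, 26 were higher in adipose tissue, where 37.8% of all genes tested were, and 2 were lower, Ldhb and Eno3, where 15.1% were. In limma, fitted to log2(TPM + 1) over all genes with Benjamini-Hochberg adjustment, 0 members passed an adjusted p of 0.05 in WT cells, where 22 of 13376 genes did (0.164%). With the library number as a replicate block it was again 0 members, among 78 genes (0.583%), and 22 members had an unadjusted p under 0.05 (19% of all genes). At an unadjusted p under 0.05 there were 16 members, against 13% of all genes: 14 were higher in adipose tissue (9.92% of all genes) and 2 lower (3.1%). That count fell without WT adipose 3 and without WT spleen 2, as did the count over all genes. The median log2 difference was 0.93 over the members and 0.32 over all genes tested, and 31 of 35 members were on the positive side. The median of all genes was thus itself above 0, and after quantile normalization the 2 medians were 0.76 and -0.0033, with 28 members positive.

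In KO cells the same contrast gave fewer members without overlap, and also a smaller share of all genes. There 10 members were higher in both adipose libraries than in both spleen libraries (22.1% of all genes were) and 3 were lower (14.6%). The median log2 difference was 0.39 over the members and 0.16 over all genes, and 26 of 35 members were positive. This median rested on single libraries: it was 0.88 without KO spleen 3, 0.20 without KO adipose 3 and 0.10 without KO spleen 2, with 27, 23 and 20 members positive. Limma called 0 members, where 144 genes passed (1.08%), or with the replicate block 0 members among 236 genes (1.76%), and 1 member, Pdp1, had an unadjusted p under 0.05, against 12.9% of all genes. With the block these were 2 members (17.1% of all genes). Without the block the count changed with single KO libraries left out, as did the count over all genes.

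With both genotypes averaged, the members' median was 0.75 against 0.24 for all genes, and 29 of 35 were positive. Non-overlap of all 4 adipose with all 4 spleen libraries held for 8 members on the higher side (11.6% of all genes) and 2 on the lower side (4.66%). The 8 were Gpi1, Pfkp, Aldoa, Eno1, Pfkfb4, Pdha1, Dlat and Pdp1, and the 2 were Ldhb and Eno3. An unadjusted p under 0.05 was reached by 16 members, against 22.6% of all genes: 14 were higher (16.4%) and 2 lower (6.14%). It was 20 with the replicate block (29.2% of all genes). Without the block it fell when WT spleen 2 or KO spleen 2 was left out, as did the count over all genes. None passed the adjusted threshold, where 409 genes did (3.06%), the closest being Aldoa with an adjusted p of 0.0544. With the replicate block, limma called 885 genes (6.62%, of which 5.15% higher and 1.47% lower in adipose tissue), and 6 members were among them: Aldoa, Pfkl, Pfkp, Adpgk and Pdp1 rose and Ldhb fell. Which members were called without the block changed with single libraries left out, and so did the number of all genes called.

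**Figure D3:**
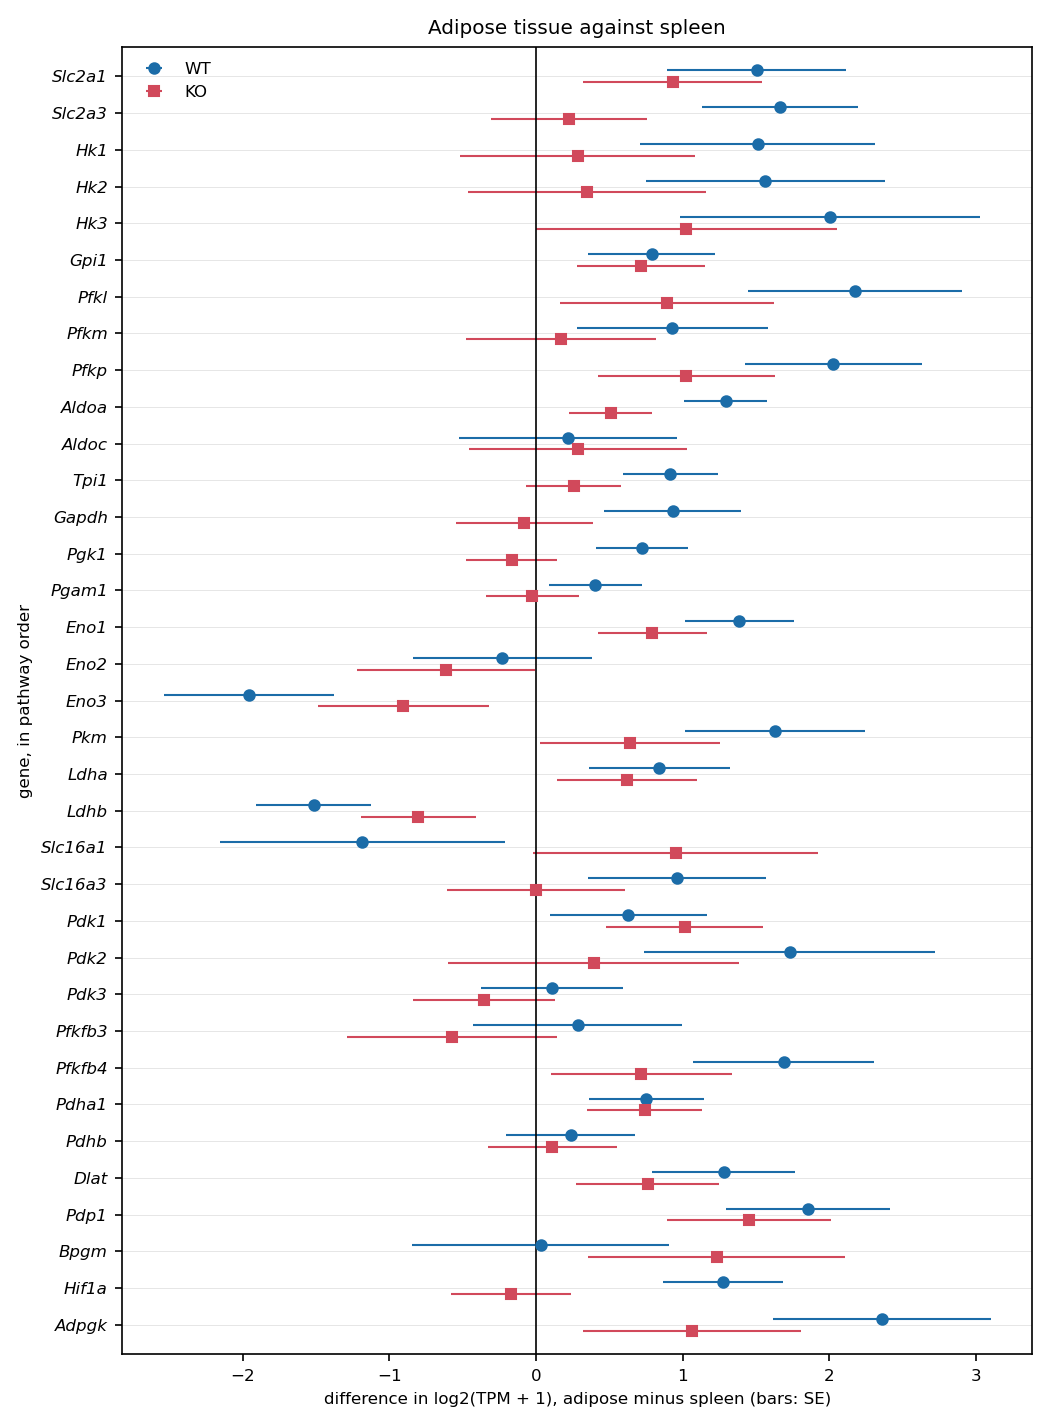
Adipose minus spleen difference in log2(TPM + 1) for each of the 35 members tested, in WT and in KO cells, with bars of 1 SE from limma. In WT cells 31 of 35 points lie to the right of 0 and in KO cells 26 do, while Ldhb and Eno3 lie to the left in both.

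Both glucose carriers had their highest group mean in WT adipose cells. Slc2a1, the basal transporter GLUT1, was at 56.6, 35.0, 54.2, 16.5, 12.1, 18.7, 11.4 and 20.4 TPM. WT adipose and KO adipose 2 stood above every spleen library, KO adipose 2 above WT adipose 3, and KO adipose 3 lay within the spleen range. Its WT tissue difference was 1.50 on the log2 scale (SE 0.61, limma adjusted p = 0.357). Slc2a3, the high-affinity transporter GLUT3, was at 42.8, 42.5, 8.82, 11.9, 10.2, 15.9, 5.08 and 14.3 TPM. Only the 2 WT adipose libraries stood out, and KO adipose cells lay within the spleen range. The WT tissue difference of Slc2a3 was 1.66 (SE 0.53, limma adjusted p = 0.295) and that in KO cells 0.22 (SE 0.53, adjusted p = 0.901), which turned to -0.11 after quantile normalization and to -0.44 without KO spleen 2.

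Glucose is first phosphorylated by hexokinases. Hk1, the widely expressed form, was at 13.5, 31.0, 4.21, 17.7, 4.19, 9.97, 4.18 and 11.7 TPM, with the libraries numbered 3 above those numbered 2 in every group. Hk2, the inducible form, ran from 1.28 to 15.6 TPM and Hk3, a form typical of myeloid cells, from 0 to 13.5 TPM. Both WT adipose libraries exceeded both WT spleen libraries for each of the 3 genes, with adjusted p from limma of 0.464, 0.452 and 0.447. Hk3 was at 13.5 TPM in WT adipose 3 and 7.05 TPM in KO adipose 3, while the macrophage list summed to 21.0 and 11200 TPM in those libraries, and the part of macrophage RNA in Hk3 was not tested. Adpgk, an ADP-dependent glucokinase, had the largest WT tissue difference of all members at 2.36 on the log2 scale (SE 0.74, limma adjusted p = 0.290). Its values were 76.6, 106, 16.7, 62.8, 14.1, 19.9, 7.43 and 29.8 TPM, so both WT adipose libraries and KO adipose 3 lay above all spleen libraries and KO adipose 2 lay among them. Adpgk passed the threshold when only the WT libraries were fitted (adjusted p = 0.0303) or when both KO libraries numbered 2 were left out (0.0357).

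The upper steps of the pathway followed. Gpi1, glucose-6-phosphate isomerase, was at 133 to 168 TPM in adipose and 59.1 to 129 TPM in spleen libraries. Phosphofructokinase, the main control point of glycolysis, has 3 subunit genes, of which Pfkp and Pfkl were the abundant ones. Pfkp was at 69.8, 77.0, 40.2, 38.2, 10.1, 28.9, 10.9 and 31.9 TPM, in an order of WT adipose, KO adipose and then spleen without overlap between adipose and spleen. Pfkl was at 43.8, 60.0, 12.4, 36.5, 6.75, 16.3, 5.70 and 20.7 TPM, and here KO adipose 2 lay inside the spleen range. The tissue difference averaged over genotypes was 1.52 for Pfkp (SE 0.43, limma adjusted p = 0.0964; 0.0493 with the replicate block) and 1.53 for Pfkl (SE 0.52, adjusted p = 0.138; 0.0317 with the block). Pfkm, the muscle subunit, stayed between 1.74 and 7.72 TPM with overlapping tissues. Of the 2 members that make the phosphofructokinase activator fructose 2,6-bisphosphate, Pfkfb4 was at 3.33, 7.78, 1.38, 3.67, 1.08, 0.758, 0.761 and 1.33 TPM. All 4 adipose libraries were above the spleen libraries, KO adipose 2 by little. Pfkfb3 ran from 0.472 to 4.50 TPM with no separation of groups.

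Among the abundant enzymes, aldolase and enolase also separated the tissues without overlap. Aldoa, the main aldolase, was at 686, 788, 596, 503, 308, 291, 381 and 388 TPM. Every adipose library was above every spleen library, and the averaged difference was 0.90 (SE 0.20, limma adjusted p = 0.0544; 0.0378 with the block). Aldoc, the brain-type form, ran from 3.29 to 15.6 TPM with overlapping tissues. Eno1, the common enolase, was at 868, 668, 709.7, 419, 285, 297, 257 and 384 TPM, again without overlap, with an averaged difference of 1.09 (SE 0.26, limma adjusted p = 0.0675). Eno3, the muscle enolase, went the other way, at 12.0, 3.04, 10.9, 11.5, 23.1, 31.8, 23.4 and 20.4 TPM, with an averaged difference of -1.43 (SE 0.41, limma adjusted p = 0.103). Skeletal muscle markers summed to 6.34 to 33.0 TPM in the 8 libraries. Eno2, the neuronal form, did not exceed 2.47 TPM.

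The steps between aldolase and enolase differed less. Tpi1, triosephosphate isomerase, was at 234, 218, 168, 245, 106, 134, 150.5 and 192 TPM. The tissues overlapped through the KO libraries, and the WT difference was 0.92 (SE 0.32, limma adjusted p = 0.313). Gapdh, often used as a reference gene, was at 501, 242, 364, 193, 159, 208, 344 and 228 TPM, with libraries 2 and 3 of adipose tissue as far apart as the tissues. Pgk1, which makes the first ATP of the pathway, was at 328, 241, 175, 186, 145, 199.7, 195 and 211 TPM. WT adipose libraries lay above all others, whereas both KO adipose libraries lay below both KO spleen libraries. Pgam1, phosphoglycerate mutase, spanned only 119 to 207 TPM over all libraries. Pkm, pyruvate kinase, was at 835, 872, 446, 523, 176, 432, 165 and 578 TPM, with KO spleen 3 above both KO adipose libraries. Its WT tissue difference was 1.63 (SE 0.61, limma adjusted p = 0.331).

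Bpgm diverts an intermediate of this stretch into 2,3-bisphosphoglycerate, the haemoglobin ligand of red cells. Bpgm was at 31.3, 54.0, 82.1, 93.0, 30.9, 52.4, 11.6 and 111 TPM. The erythroid list of 6 genes summed to 43.1, 2678, 24602, 41350.4, 10752, 27091, 797 and 63676 TPM in the same libraries, and its part in Bpgm was not tested. Bpgm was highest in KO spleen 3 and lowest in KO spleen 2, and the groups overlapped between tissues.

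At the lactate end the 2 dehydrogenase subunits lay on opposite sides. Ldha, whose subunit favours lactate formation, was at 1543, 1303, 1719.9, 717, 1069, 586, 764 and 682 TPM, among the most abundant transcripts of every library (98.3rd to 99.4th percentile of the 13376 genes tested). WT adipose 2, WT adipose 3 and KO adipose 2 lay above all spleen libraries, and KO adipose 3 lay among them. Ldhb, whose subunit favours lactate use, was at 62.8, 44.2, 137, 74.6, 163, 143, 211 and 149 TPM. All adipose libraries lay below all spleen libraries, KO adipose 2 by a small step, and the averaged difference was -1.16 (SE 0.28, limma adjusted p = 0.0671; 0.0276 with the block). The ratio of Ldha to Ldhb, which needs no comparison of library totals, was 24.6, 29.5, 12.5, 9.61, 6.57, 4.10, 3.62 and 4.58. All 4 adipose libraries had a higher ratio than all 4 spleen libraries, and both WT adipose libraries a higher ratio than both KO adipose libraries. The log2 difference between tissues was 1.89, with an exact two-sided permutation p of 0.0286 over 70 arrangements, the smallest that 4 against 4 libraries can give, and 0.0857 after adjustment over the 6 ratios compared.

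The enolase ratio behaved likewise. Eno1 over Eno3 was 72.6, 219.7, 65.3, 36.3, 12.3, 9.32, 10.98 and 18.9, with no overlap of tissues and a log2 difference of 2.52 (exact permutation p = 0.0286, adjusted 0.0857). Both ratios join genes whose own tissue differences are given above, so they restate those differences within a library. For the other ratios the tissues overlapped: the log2 difference was 0.65 for Aldoa over Aldoc (exact permutation p = 0.229), -0.28 for Slc2a3 over Slc2a1 (exact p = 0.8), 0.0094 for Pfkl over Pfkp (exact p = 1) and -0.058 for Hk1 over Hk2 (exact p = 0.914). KO adipose 2 had the lowest Slc2a3 to Slc2a1 ratio, 0.163, against 0.446 to 1.21 in the other libraries.

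**Figure D4:**
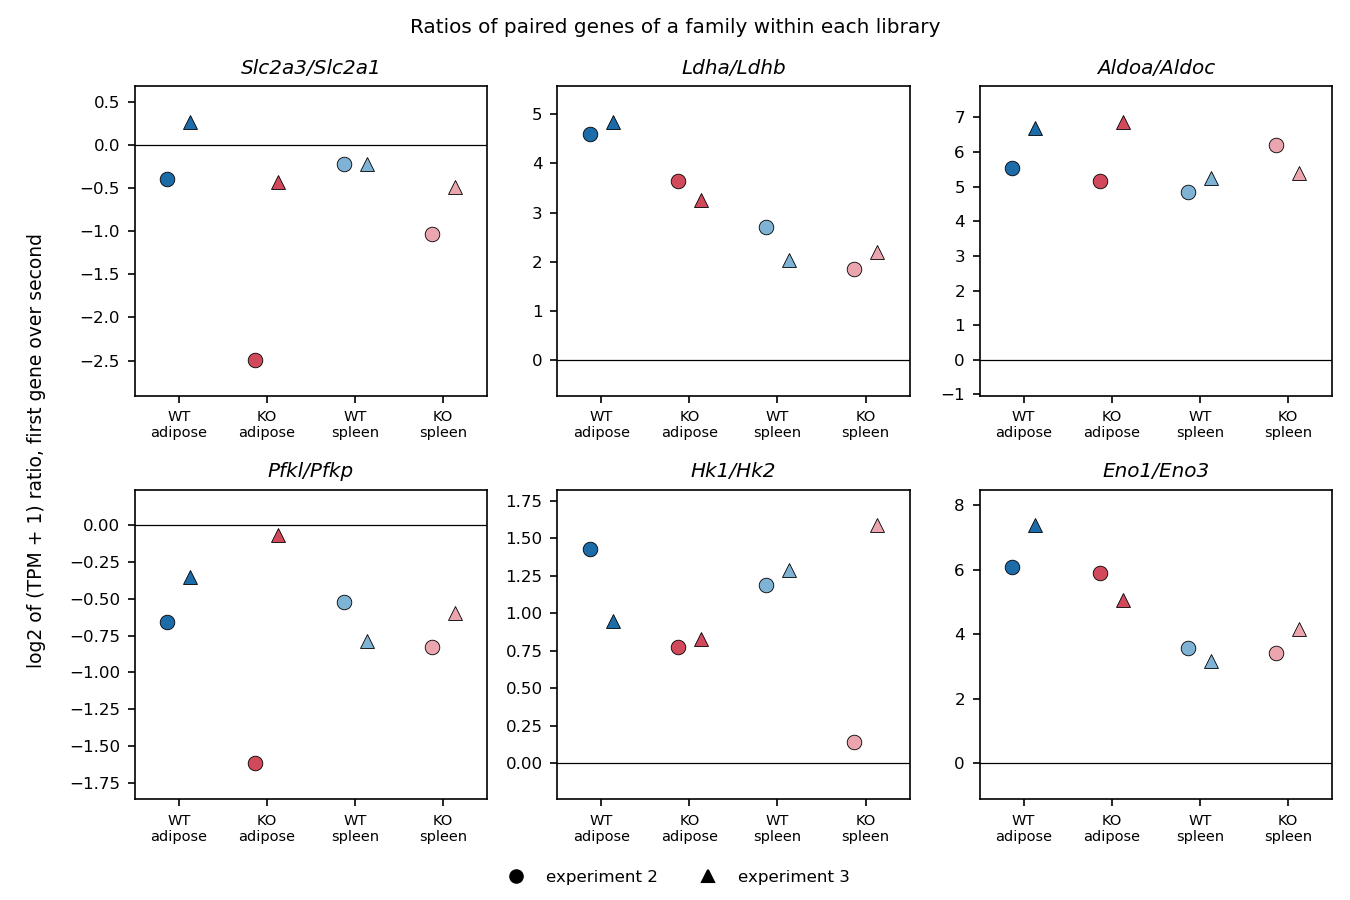
Log2 ratio of paired genes, log2((a + 1)/(b + 1)) from TPM, in each of the 8 libraries for the 6 ratios compared. The Ldha to Ldhb and Eno1 to Eno3 ratios are higher in all 4 adipose libraries than in all 4 spleen libraries, and the other 4 ratios overlap.

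Lactate leaves or enters cells through monocarboxylate carriers. Slc16a1, the carrier MCT1, was at 19.1, 0.685, 39.2, 29.0, 11.8, 12.7, 18.2 and 15.8 TPM. WT adipose 3 stood far below the other 7 libraries, and its partner WT adipose 2 lay above all 4 spleen libraries. Slc16a3, the low-affinity exporter MCT4, ran from 0.249 to 3.08 TPM and was highest in the 2 WT adipose libraries.

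Pyruvate entry into mitochondrial oxidation is set by pyruvate dehydrogenase. Pdha1, the catalytic alpha subunit, was at 141, 90.1, 111, 78.9, 62.7, 70.6, 42.8 and 72.2 TPM. Dlat, the acetyltransferase core, was at 21.9, 20.7, 14.2, 14.4, 6.55, 10.2, 5.52 and 11.5 TPM. Both were higher in every adipose than in every spleen library, and the averaged differences were 0.75 for Pdha1 (SE 0.28, limma adjusted p = 0.168) and 1.02 for Dlat (SE 0.35, adjusted p = 0.140). Pdhb, the beta subunit, ran from 182 to 417 TPM and overlapped between tissues.

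Pdp1, the phosphatase that switches the complex on, was at 23.4, 21.1, 19.5, 15.6, 4.08, 7.09, 3.29 and 9.64 TPM. All adipose libraries lay above all spleen libraries, with a tissue difference of 1.85 in WT cells (SE 0.56, limma adjusted p = 0.264) and 1.45 in KO cells (SE 0.56, adjusted p = 0.333). Averaged, it was 1.65 (SE 0.40, limma adjusted p = 0.0671; 0.0446 with the block). Of the kinases that switch the complex off, Pdk1, a HIF-1 target, was at 24.7, 23.2, 16.1, 17.7, 13.2, 17.3, 4.36 and 13.6 TPM. WT adipose libraries were the highest, and KO adipose 2 lay just below WT spleen 3. Pdk3, the most abundant kinase of the 4 at 22.8 to 60.3 TPM, and Pdk2, at 1.19 to 15.1 TPM, overlapped between tissues. Pdk4 reached 1.89 TPM in KO adipose 3, the library with the highest adipocyte sum, and was at most 0.0443 TPM elsewhere; the part of adipocyte RNA was not tested.

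KO adipose cells had lower values than WT adipose cells for most members, but no member passed the test. Limma called 0 of 35, where 38 of 13376 genes passed (0.284%). At an unadjusted p under 0.05 there were 4 members, against 6.97% of all genes: 2 were lower (3.87%) and 2 higher (3.1%). With the replicate block 43 genes passed (0.321%), again without a member, and 7 members had an unadjusted p under 0.05 (11.9% of all genes). Both KO libraries lay below both WT libraries for 15 members, against 27.5% of all genes, and above them for 3, against 7.66%. The median log2 difference was -0.48 over the members and -0.27 over all genes, and 30 of 35 members were negative, as were 67.7% of all genes. After quantile normalization these medians were -0.29 and -0.089, with 29 members negative. Without KO adipose 3 they were -0.42 and -0.39, with 24 members negative. The count at an unadjusted p under 0.05 rose without KO adipose 3 and fell without WT adipose 3, as did that over all genes. The T cell core list was negative for all 13 of its genes in this contrast, with a median of -0.83 and 0 called. In sum, however, that list was low in KO adipose 3 alone, at 3735 TPM. KO adipose 2 had 9481 TPM, against 9013 and 7326 TPM in WT adipose 2 and 3. The fibroblast and mesothelium list of 9 genes was positive for all 6 of its tested genes, with a median of 5.52 and 4 called. Outside KO adipose tissue that list reached 1 TPM in sum only in WT adipose 3 (4.80 TPM). Its genes could thus pass the expression filter only through KO adipose libraries, which largely fixed their direction. The macrophage and monocyte list was positive for all 11, with a median of 4.45 and 0 called. Its summed level was raised in KO adipose 3 alone, at 11200 TPM. It was 17.1 TPM in KO adipose 2, against 9.41 and 21.0 TPM in WT adipose 2 and 3. The part of these lists in the members' difference was not tested. These values use the same WT adipose libraries as the WT tissue comparison, so the 2 comparisons are not independent.

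Hif1a and Slc2a3 had the smallest p-values of the members. Hif1a encodes the oxygen-regulated subunit of HIF-1, which activates transporter and glycolytic genes. Its values were 153, 122, 39.2, 58.8, 48.1, 65.2, 40.0 and 73.5 TPM, so both WT adipose libraries were well above the other 6 and KO adipose cells lay close to spleen cells. The KO minus WT difference was -1.49 (SE 0.41, unadjusted p = 0.00611, limma adjusted p = 0.358). For Slc2a3 it was -1.95 (SE 0.53, unadjusted p = 0.00619, limma adjusted p = 0.358), a mean 4.11-fold lower. By rank within each library among the 13376 genes tested, Slc2a3 lay at the 75.1st and 75.7th percentile in WT adipose cells. In KO adipose cells Slc2a3 lay at the 52.4th and 49.5th. Hif1a lay at the 92.0th and 90.6th percentile and at the 77.3rd and 83.5th. Neither gene passed the threshold under any alternative tried, the adjusted p of limma running from 0.170 to 0.776 for Slc2a3 and from 0.215 to 0.820 for Hif1a. Without both KO libraries numbered 2, in which Foxp3 was low, the differences were -1.75 for Slc2a3 and -1.20 for Hif1a.

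Without the block, the other members at an unadjusted p under 0.05 were higher in KO adipose cells. Ldhb differed by 0.93 (SE 0.39, unadjusted p = 0.0447, limma adjusted p = 0.690). Slc16a1 differed by 2.58 (SE 0.97, unadjusted p = 0.0285, limma adjusted p = 0.605), a value that rested on WT adipose 3: it was 0.79 without that library and 4.37 without WT adipose 2. Among the remaining members, Pgk1 differed by -0.64 (SE 0.31), Adpgk by -1.43 (SE 0.74), Pfkl by -1.22 (SE 0.73), Pfkp by -0.89 (SE 0.60), Pkm by -0.82 (SE 0.61) and Aldoa by -0.42 (SE 0.28), all with KO libraries below WT libraries and adjusted p from limma between 0.742 and 0.787. With the block, Adpgk, Pfkl and Hk1 also had an unadjusted p under 0.05, at 0.0207, 0.0202 and 0.0242 (limma adjusted p = 0.350, 0.347 and 0.356), each lower in KO cells.

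**Figure D5:**
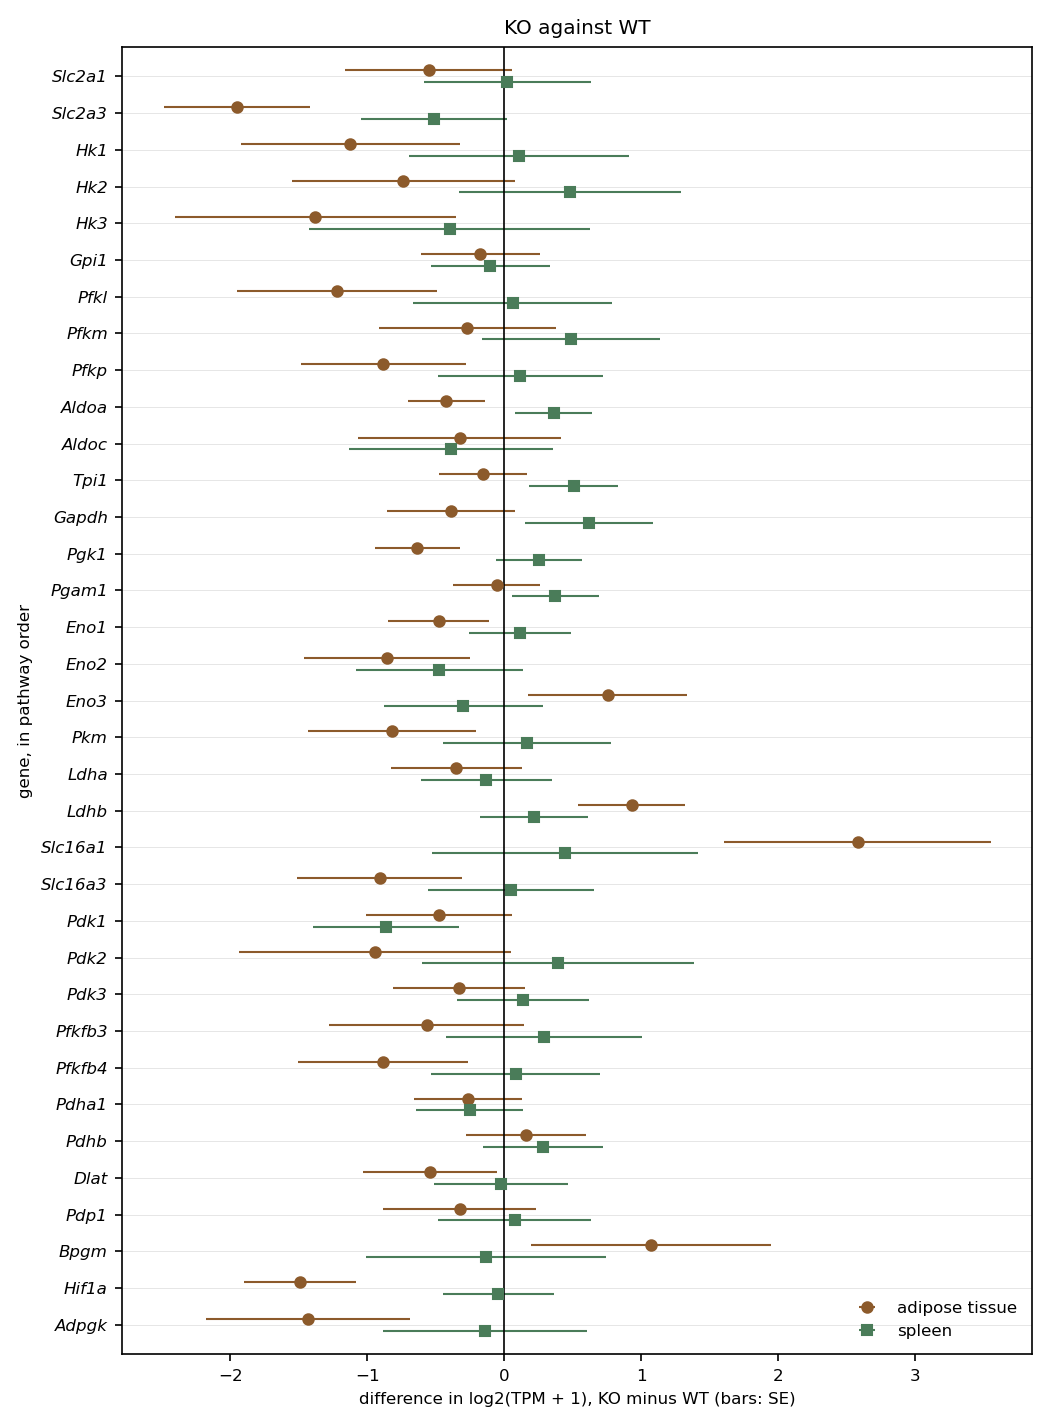
KO minus WT difference in log2(TPM + 1) for each of the 35 members tested, in adipose tissue and in spleen, with bars of 1 SE from limma. In adipose tissue 30 of 35 points lie left of 0, with Slc2a3 at -1.95 and Hif1a at -1.49, and in spleen 22 of 35 lie right of 0.

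In spleen no difference between the genotypes was called, including that of Id2, the targeted gene. Limma called 0 members and 0 genes of 13376 (0%), and at an unadjusted p under 0.05 there were 0 members and 64 genes (0.478%). With the replicate block there were 0 members and 130 of 13376 genes at an unadjusted p under 0.05. The members' median difference was 0.083 against -0.12 for all genes, with 22 of 35 positive. Tpi1 (0.50), Gapdh (0.62), Aldoa (0.36), Pgam1 (0.37) and Slc16a1 (0.44) had both KO libraries above both WT libraries, 5 members where 5.93% of all genes did so. Hk3 alone had both KO libraries below, at under 1 TPM in each group, where 13.9% of all genes did so. The direction of the median rested on single libraries: it was -0.14 without WT spleen 2, -0.37 without KO spleen 3, and 0.39 without KO spleen 2. For Hif1a the difference was -0.045 (SE 0.41) and for Slc2a3 -0.51 (SE 0.53), each with a limma adjusted p of 1, and both differences turned positive without KO spleen 2.

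Whether the genotype difference depended on tissue was tested as an interaction. Its median was -0.66 over the members, 29 of 35 of them negative, and -0.17 over all genes. Without KO spleen 3 these medians were -0.31 and 0.058, and without KO spleen 2 -0.95 and -0.35. Limma called 0 members, where 4 of 13376 genes passed (0.0299%) and with the replicate block 0 did, and 1 member, Hif1a, had an unadjusted p under 0.05, against 3.06% of all genes. With the block Slc2a3 joined it, making 2 members (4.94% of all genes). The interaction was -1.45 for Hif1a (SE 0.58, unadjusted p = 0.0356, limma adjusted p = 1) and -1.44 for Slc2a3 (SE 0.76, unadjusted p = 0.0927, adjusted p = 1). The tissue difference in KO cells minus that in WT cells is the same quantity, and no member passed.

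Neighbouring pathways were measured with 4 further gene lists. Of 21 tested genes of related glycolytic and pyruvate steps 16 were on the adipose side of the averaged tissue contrast, as were 8 of 10 of the pentose phosphate pathway, 17 of 22 of the HIF pathway and its other targets, and 12 of 14 around Myc and mTOR, against 63.8% of all genes. Their medians were 0.35, 0.35, 0.49 and 0.47, all below the members' 0.75 and above the 0.24 of all genes. Limma called 1 gene in these 4 lists in that contrast, where 3.06% of all genes passed, and 0 in the other 5 contrasts. The gene was Ero1l, a HIF-induced oxidase of the endoplasmic reticulum that forms disulfide bonds. Ero1l was at 109.9, 81.1, 34.3, 51.3, 15.1, 16.6, 14.3 and 20.6 TPM, with WT adipose above KO adipose and KO adipose above spleen. It rose in adipose cells by 1.87 (SE 0.27, limma adjusted p = 0.0154), with adjusted p of 0.0076 to 0.0885 over the alternatives. It missed the threshold without WT spleen 2 (0.0885), WT spleen 3 (0.0827) or KO spleen 2 (0.0654) and without the expression filter (0.0653).

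Other genes of these lists did not pass without the block. Txnip, whose product restrains glucose uptake, was at 471, 1160.2, 472, 703, 169, 243, 84.5 and 280.2 TPM, all adipose libraries above all spleen libraries, and differed by 1.88 (SE 0.44, limma adjusted p = 0.0639; 0.0149 with the block). Slc2a8, an intracellular glucose transporter, differed by 1.86 (SE 0.47, adjusted p = 0.0780; 0.0276 with the block), Slc3a2, the heavy chain of an amino acid transporter, by 0.93 (SE 0.25, adjusted p = 0.0918; 0.0461 with the block), and Pgm1, phosphoglucomutase, by 1.26 (SE 0.37, adjusted p = 0.108), all by limma. The HIF list was not uniform. Of its 22 tested genes, 4 were higher in every adipose library than in every spleen library (11.6% of all genes were). A further 2 were lower in every adipose library (4.66% of all genes). Of the 4, P4ha2 differed by 1.89 (SE 0.49, limma adjusted p = 0.0816) and was not recomputed under the alternatives. P4ha2 was at 0 in both WT spleen libraries, and KO spleen cells differed from them by only 0.021 on the log2 scale. It passed the expression filter through adipose libraries alone, which largely fixed its direction. Of the 2, Fam162a, a mitochondrial HIF target, differed by -0.87 (SE 0.27, limma adjusted p = 0.118, and 0.0449 after quantile normalization). Whether Txnip, Slc2a8, Slc3a2, Pgm1 and Fam162a passed also changed with single libraries left out.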

How the data were processed

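Per the labels' protocols, cDNA was amplified with SMARTer v4 and libraries were made with Nextera XT. The authors deposited TPM values for 8 libraries in 1 table; the submitters' processing notes name the build mm9, and the sources used here name no aligner or annotation. No value columns were left unmapped. TPM was transformed to log2(TPM + 1), and genes at 1 TPM or more in at least 2 libraries were tested with limma 3.58.1 in R 4.3.3 (variance trend, 4 groups in 1 fit, 4 residual degrees of freedom, Benjamini-Hochberg over all genes). The filter was applied again wherever libraries were left out. Ratios between genes used an exact permutation test. The members, lists, tests and the rule for named genes (all members, and of the other 4 lists those called, or up to 4 with the smallest p) were chosen with earlier results of these data known. The column headers number the libraries by experiment; differences between libraries 3 and 2 correlated across genes at 0.13 to 0.38 over the 6 pairs of groups, so values with the library number as a replicate block are given where they change a call or move a count of calls by over 1.5 times. On simulated data for the averaged tissue contrast with 13376 genes, 62 of 100 changes of 2 on the log2 scale and 90 of 100 of 4 were recovered with 14 false calls, and for KO minus WT in adipose tissue 19 and 73 with 7 false calls. The changes were placed only in genes with a mean log2(TPM + 1) above 3, so these rates do not cover members below that level. The simulated noise was independent between libraries, with 1 spread per gene for all groups. Marker and list names without a row in the table were not analysed here.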

Additional observations from a re-analysis of the deposited data

Results flagged for a closer look

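Aldoa, the main aldolase, was lower in both KO than in both WT adipose libraries and higher in both KO than in both WT spleen libraries. The difference between these genotype effects was -0.78 on the log2 scale (SE 0.40, unadjusted p = 0.0840, limma adjusted p = 1). Pgk1, phosphoglycerate kinase, was higher in adipose than in spleen libraries in WT cells and lower in KO cells, again without overlap. That difference was -0.89 (SE 0.44, unadjusted p = 0.0780, limma adjusted p = 1). Neither passed the threshold.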

How the results depend on the processing

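With 2 libraries a group and no counts, precision is limited by the spread between libraries, which was widest in KO adipose tissue (SD of the difference between its libraries 1.49 on the log2 scale, against 0.70 in WT spleen). Over 67 single-gene differences recomputed under each alternative, 1000 alternative values kept direction and side of the threshold, 30 newly passed it, and 4, all of Ero1l, lost it. The other 9 turned direction. For KO minus WT in spleen, Hif1a was 0.055 after quantile normalization and 0.39 without both KO libraries numbered 2, with -0.48 to 0.39 when 1 library was left out, and Slc2a3 was 0.15 without both and -1.18 to 0.15 with 1 left out. The tissue difference of Slc2a3 in KO cells was -0.11 after quantile normalization, -0.24 without both and -0.44 to 0.89 with 1 left out. Among all 35 members, leaving out KO spleen 3 turned the sign of 12 for KO minus WT in spleen, and leaving out KO adipose 2 or KO adipose 3 that of 6 for KO minus WT in adipose tissue.

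The number of genes called moved more. For KO minus WT in adipose tissue (38 genes) it was 18 with a filter at 5 TPM, 13 with pseudocount 0.1, 72 after quantile normalization, 129 without both KO libraries numbered 2 and 0 with only the libraries compared (679 at an unadjusted p under 0.05). In spleen (0 genes) it was 2 with only the libraries compared. For the WT tissue contrast (22) it was 0 without a filter (1961 at an unadjusted p under 0.05), 59 at 5 TPM, 78 with the replicate block, 153 without both KO libraries numbered 2 and 217 with only the libraries compared. For the KO tissue contrast (144) it was 63 without a filter, 70 with pseudocount 0.1, 89 with pseudocount 5, 231 after quantile normalization, 236 with the replicate block, 71 without both KO libraries numbered 2 and 46 with only the libraries compared. For the interaction (4) it was 0 without a filter, at 5 TPM, with pseudocount 0.1 and with the replicate block (661, 246, 408 and 661 at an unadjusted p under 0.05), 10 after quantile normalization and 21 without both KO libraries numbered 2. For the averaged tissue contrast (409) it was 21 without a filter and 885 with the replicate block.

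Leaving out 1 library at a time gave 14 to 271 genes for KO minus WT in adipose tissue, 0 to 175 for the WT tissue contrast, 1 to 710.0 for the KO tissue contrast, 0 to 79 for the interaction and 26 to 1178 for the averaged contrast. Members called, 0 in each contrast, became 1 (Adpgk) in the WT tissue contrast without both KO libraries numbered 2 or with only the libraries compared. In the averaged contrast they became 1 at 5 TPM (Aldoa, among 437 genes called of 9958). After quantile normalization they were 2 (Aldoa and Ldhb, among 610 of 13376), and with the replicate block 6 (among 885 of 13376). Which members were called also changed with libraries left out. The block changed no other call of a member at the adjusted threshold. The tissue difference of Slc2a3 over Slc2a1 was 0.12 without both KO libraries numbered 2 and -0.62 to 0.30 with 1 library left out, that of Pfkl over Pfkp -0.065 with pseudocount 5 and -0.19 to 0.32, and that of Hk1 over Hk2 0.085 with pseudocount 5 and -0.36 to 0.12. The cause of these shifts was not tested.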
